A study of Mus musculus with 4 samples.

Results

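The neutrophil granule and S100 genes described here are 10 genes of 43629 in the count files: S100a8, S100a9, Retnlg, Ly6g, Lcn2, Ngp, Camp, Mpo, Elane and Csf3r. They were found by their Ensembl identifiers, which GENCODE M21 pairs with these symbols, and all 10 were present. They were selected on values measured in these same libraries, the S100a9 counts among them, so their values are a description and carry no test. The series holds 4 RNA sequencing libraries of islets of C57BL/6 mice, 1 per group: islets with the genotype label Rip2;IMP2, which the series title describes as lacking IMP2 in islets (below, the labelled knockout), an immunoprecipitation of IMP2 from islets labelled WT (RNA immunoprecipitation, RIP), a library titled IgG from islets labelled WT, and islets labelled control. IMP2 is an RNA-binding protein encoded by Igf2bp2, and the name Rip2 is often given to an insulin promoter, active in beta cells. The sources used here give no age, sex, number or pooling of animals.

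Neutrophils are short-lived white blood cells that mature in the bone marrow, and they carry antimicrobial proteins in granules that are filled in sequence as the cell matures. Primary granules hold myeloperoxidase and serine proteases, whose mRNAs are made mainly by promyelocytes. Secondary and tertiary granules hold lactoferrin, lipocalin, cathelicidin and metalloproteinases, whose mRNAs follow later. S100A8 and S100A9 form calprotectin, a calcium- and zinc-binding complex that fills much of the cytosol of mature neutrophils, and circulating neutrophils keep S100 mRNA while most granule mRNA is lost. Healthy islets hold resident macrophages and few neutrophils.

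The promoter windows of 4 members are shown because S100a8 and S100a9 encode the partners of calprotectin and because Ngp and Mpo had the count profiles closest to that of S100a9. Each window runs from 250 bases before to 50 after the start in RefSeq (GRCm38.p6, the assembly of mm10), printed 5′ to 3′ along the gene. Capitals mark TTGCNNAA, a core bound by C/EBP factors, and GAGGAA, a core bound by PU.1, on either strand. A match on the other strand appears as its reverse complement, such as TTGGGCAA in Ngp and TTCCTC in S100a8.
S100a9, chr3:90695672-90695971, minus strand: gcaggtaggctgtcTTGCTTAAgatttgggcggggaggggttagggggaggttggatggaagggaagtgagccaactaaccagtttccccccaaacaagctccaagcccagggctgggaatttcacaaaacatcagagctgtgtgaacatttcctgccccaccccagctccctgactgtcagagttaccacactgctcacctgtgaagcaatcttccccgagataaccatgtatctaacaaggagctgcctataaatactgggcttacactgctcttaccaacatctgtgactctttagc
S100a8, chr3:90668821-90669120, plus strand: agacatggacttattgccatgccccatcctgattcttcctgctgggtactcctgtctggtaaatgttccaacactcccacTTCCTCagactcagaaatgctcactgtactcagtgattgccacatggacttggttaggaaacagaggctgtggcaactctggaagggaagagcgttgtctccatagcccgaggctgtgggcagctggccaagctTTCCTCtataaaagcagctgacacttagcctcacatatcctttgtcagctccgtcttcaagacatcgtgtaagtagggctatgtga
Ngp, chr9:110419558-110419857, plus strand: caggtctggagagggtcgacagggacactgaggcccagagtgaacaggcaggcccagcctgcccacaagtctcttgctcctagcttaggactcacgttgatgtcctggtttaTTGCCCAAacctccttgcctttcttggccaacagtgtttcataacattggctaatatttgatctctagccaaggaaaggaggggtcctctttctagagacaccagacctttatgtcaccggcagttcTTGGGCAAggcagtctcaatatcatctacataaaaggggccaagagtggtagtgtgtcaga
Mpo, chr11:87793534-87793833, plus strand: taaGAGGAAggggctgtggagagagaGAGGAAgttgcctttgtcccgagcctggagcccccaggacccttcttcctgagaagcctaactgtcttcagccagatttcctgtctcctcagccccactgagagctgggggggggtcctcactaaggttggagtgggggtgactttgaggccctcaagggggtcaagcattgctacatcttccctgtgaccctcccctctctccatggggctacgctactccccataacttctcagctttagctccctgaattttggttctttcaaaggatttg

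S100a9 held the C/EBP core 236 bases before its start, and Ngp held it 138 and 11 bases before its start. S100a8 held the PU.1 core 170 and 36 bases before its start, and Mpo held it 247 and 224 bases before. None of the printed windows held both motifs. Of the 10 members, 5 held the C/EBP core and 6 the PU.1 core, and Camp held neither. Among all 32851 windows of this length, 10.8% held the C/EBP core and 28.3% the PU.1 core. These matches are descriptions of letters, and the libraries do not measure binding.

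The deposited counts summed to 24275628 over genes in the labelled knockout, 6025594 in the RIP, 13195732 in the IgG library and 26350813 in control islets. Levels are given in CPM, the counts of a gene scaled to a library of 1000000 gene counts, and 95% intervals are exact and cover counting error only. Igf2bp2, the targeted gene, had 222 counts in the labelled knockout, 186 in the RIP, 458 in the IgG library and 255 in control islets. Relative to control islets it stood at 0.979 (0.814 to 1.18) in the labelled knockout, so it does not bear out that label, and such a count over all exons says nothing of a partial deletion. The IgG library stood apart from the other 3. The 5 islet markers Ins1, Ins2, Gcg, Sst and Iapp summed to 8734273 counts in the labelled knockout, 1525608 in the RIP, 13910 in the IgG library and 8544308 in control islets, and 4 brown fat markers to 709, 6558, 199417 and 1008 counts in the same order. The B cell markers summed to 143.1 CPM in the labelled knockout and 739.8 CPM in control islets, and the T cell markers to 10.5 and 87.3 CPM.

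In the labelled knockout, 7 of the 10 members were higher than in control islets beyond counting error, while Lcn2 and Csf3r overlapped with control and Ly6g had too few counts. The share of all detected genes called higher in the same way was 5.06%. S100a9, S100a8, Ngp and Camp had 335, 212, 178 and 79 counts in the labelled knockout, against 3, 11, 2 and 2 in control islets. Summed over the 10 members, the labelled knockout held 1058 counts (43.6 CPM), the RIP 95 (15.8 CPM), the IgG library 60 (4.55 CPM) and control islets 209 (7.93 CPM). In bulk samples, more cells of a type and more RNA per cell cannot be told apart. With 1 library in each group, every difference below is between 2 libraries and has no replicate check. Ratios use TMM scaling, which sets each pair of libraries to a common level of most genes.

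**Figure D1:**
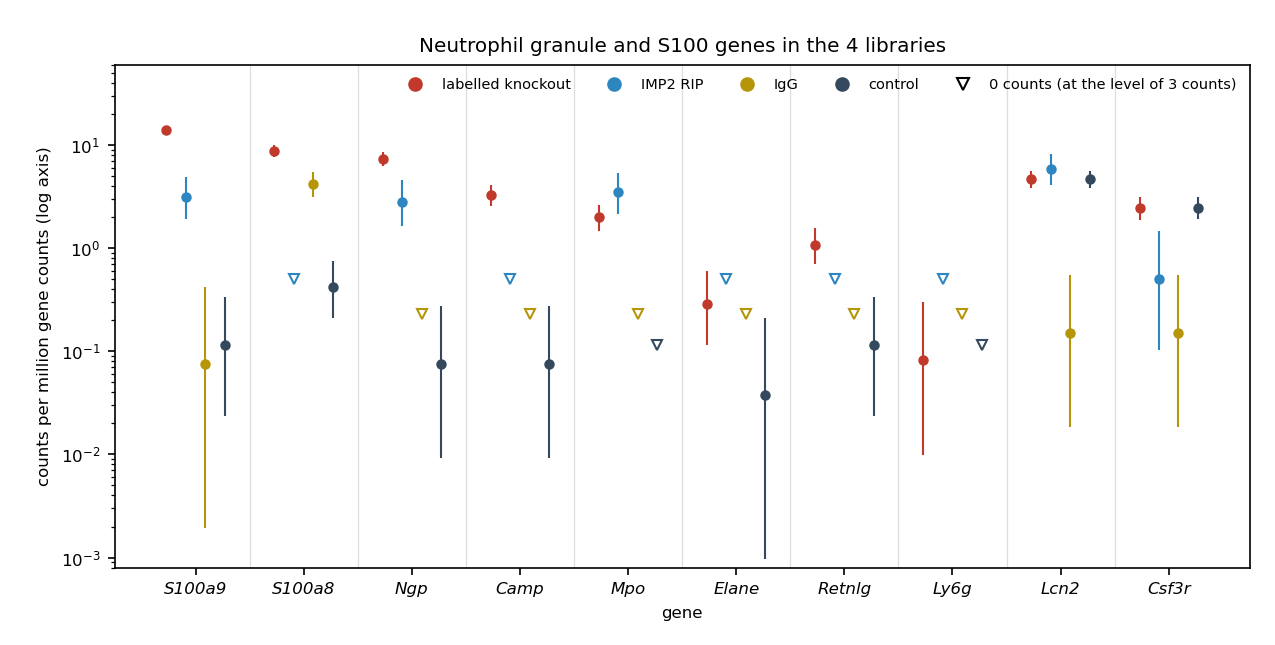
Levels of the 10 members in the 4 libraries, in CPM on a log axis. Points carry exact 95% Poisson intervals, and open triangles mark 0 counts, drawn at the level of 3 counts in that library. S100a9, S100a8, Ngp, Camp, Mpo and Retnlg stand apart between the labelled knockout and control islets, while Lcn2 and Csf3r overlap.

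S100a9 (ENSMUSG00000056071, mm10 chromosome 3, 90692632 to 90695721, minus strand) encodes the larger calprotectin subunit. It stood at 13.8 CPM (12.4 to 15.4) in the labelled knockout and 3.15 CPM (1.90 to 4.92) in the RIP, against 0.0758 CPM (0.00192 to 0.422) in the IgG library and 0.114 CPM (0.0235 to 0.333) in control islets. The labelled knockout was highest, the RIP came next, and the intervals of the IgG library and control islets overlapped. The labelled knockout level was 125.5 times that of control islets (42.6 to 612).

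S100a8 (ENSMUSG00000056054, chromosome 3, 90668978 to 90670035, plus strand) lies 22597 bases from S100a9 and encodes its partner. It stood at 8.73 CPM (7.60 to 9.99) in the labelled knockout, 0 counts in the RIP, 4.17 CPM (3.14 to 5.43) in the IgG library and 0.417 CPM (0.208 to 0.747) in control islets. Its order therefore differed from that of S100a9, with the IgG library second and the RIP at 0, which allows up to 0.498 CPM by the 3-count floor and 0.612 CPM by the exact interval. Labelled knockout over control was 21.7 (11.9 to 44.1). S100a9 made up 61.2% of the counts of the pair in the labelled knockout (335 of 547, exact interval 57% to 65.3%), 100% in the RIP (19 of 19, 82.4% to 100%), 1.79% in the IgG library (1 of 56, 0.0452% to 9.55%) and 21.4% in control islets (3 of 14, 4.66% to 50.8%). The intervals of the labelled knockout, the RIP and the IgG library did not overlap, but they cover counting error only. In the RIP, 914 genes had 1 to 5 counts and 1335 had 15 to 25, against 2069 and 984 in the IgG library. How many original molecules lie behind the 19 and 56 counts was not measured, so no difference in proportion is drawn for these 2 libraries.

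The secondary granule members Ngp and Camp were nearly absent from control islets and present in the labelled knockout. Ngp (chromosome 9, 110419747 to 110423012, plus strand), a cathelin-related protein of mouse neutrophil granules, stood at 7.33 CPM in the labelled knockout and 2.82 CPM in the RIP, with 0 counts in the IgG library and 0.0759 CPM in control islets. The labelled knockout level was 100 times that of control islets (27.3 to 833). Camp (chromosome 9, 109847379 to 109849617, minus strand) encodes the precursor of the cathelicidin peptide. It had 79 counts in the labelled knockout, 0 in the RIP, 0 in the IgG library and 2 in control islets, a ratio of 44.4 (11.9 to 373) for labelled knockout over control. Ngp was thus found in the RIP, with 17 counts, where Camp was not. Camp stood at 3.25 CPM in the labelled knockout, but the RIP came from islets labelled WT. In control islets both genes stood at 0.0759 CPM, under the 0.498 CPM that 0 counts in the RIP allow by the 3-count floor. No difference between the 2 genes is drawn from the RIP.

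Lcn2 (chromosome 2, 32384633 to 32388252, minus strand), a lipocalin that binds bacterial siderophores and is also made by many epithelia, did not follow S100a9. Its counts were 112 in the labelled knockout, 35 in the RIP, 2 in the IgG library and 122 in control islets, which is 4.61, 5.81, 0.152 and 4.63 CPM in that order. The labelled knockout and control islets overlapped, with a ratio of 1.03 (0.791 to 1.35). Lcn2 alone made up 10.6% of the members' counts in the labelled knockout (8.8% to 12.6%), against 58.4% in control islets (51.4% to 65.1%). As its own level was alike in both, these shares differ through the counts of the other members, which were chosen with this comparison known.

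The primary granule members were low in every library and highest in the labelled knockout or the RIP. Mpo (chromosome 11, 87793581 to 87804413, plus strand) encodes myeloperoxidase, which makes hypochlorous acid. It had 48 counts in the labelled knockout, 21 in the RIP, 0 in the IgG library and 0 in control islets, so it was at least 18-fold higher in the labelled knockout than the 3-count floor of control islets, and the exact interval of the ratio began at 14.1. Gm11505, an antisense gene that overlaps Mpo, had 0 counts in all 4 libraries. Elane (chromosome 10, 79886247 to 79888215, plus strand), which encodes neutrophil elastase, had 7 counts in the labelled knockout, 0 in the RIP, 0 in the IgG library and 1 in control islets, a ratio of 7.87 whose interval began at 1.01.

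Retnlg (chromosome 16, 48872621 to 48874496, plus strand), a secreted resistin-like protein of mouse neutrophils, had 26 counts in the labelled knockout, 0 in the RIP, 0 in the IgG library and 3 in control islets. The labelled knockout level was 9.74 times that of control islets (2.99 to 50.3). Ly6g (chromosome 15, 75155240 to 75159126, plus strand) encodes the surface protein by which mouse neutrophils are sorted. It had 2 counts in the labelled knockout and 0 in each of the other 3 libraries, too few for a direction. Csf3r (chromosome 4, 126024550 to 126044440, plus strand), the receptor for the growth factor G-CSF, had 59 counts in the labelled knockout, 3 in the RIP, 2 in the IgG library and 65 in control islets. The labelled knockout and control islets again overlapped, with a ratio of 1.02 (0.705 to 1.47), as with Lcn2.

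A gene was called higher or lower in the labelled knockout when the interval of its ratio did not include 1 and the fold was 1.5 or more. Among genes with a mean of at least 1 CPM over both libraries, 4 of 6 members were called higher (S100a9, S100a8, Ngp and Camp) and 0 lower, against 6.13% called higher among all 15735 genes. These 4 reached the minimum only through the labelled knockout, and the choice of members used this comparison, so the count supports nothing. With no minimum level, Mpo, Retnlg and Elane were called higher too, 7 of 10 in all, against 5.06% of 26496 genes.

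Between genes, levels were compared per kilobase of exon (RPKM, CPM divided by the exon length in kilobases from GENCODE M21). In the labelled knockout S100a9 led at 26.4 RPKM (23.7 to 29.4), followed by S100a8 at 12.6 (10.9 to 14.4), Ngp at 6.00 (5.15 to 6.95) and Camp at 4.29 (3.40 to 5.35). Ngp and Camp were the closest of these, and their intervals overlapped slightly. Retnlg at 1.81 RPKM and Lcn2 at 1.76 RPKM did not differ beyond counting error, and neither did Csf3r at 0.673 and Mpo at 0.578 RPKM. Elane at 0.293 and Ly6g at 0.0875 RPKM came last. In control islets the order was another one, with Lcn2 at 1.76 RPKM (1.47 to 2.11) above Csf3r at 0.683 (0.527 to 0.871) and S100a8 at 0.602 (0.300 to 1.08), and all other members at or under 0.218 RPKM.

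Some other granule genes were higher in the labelled knockout, and most surface, signalling and oxidase genes of neutrophils were not. Over 10 lists of 102 related genes, 98 had a count in either islet library, and without a minimum level 16 were called higher and 30 lower. That is to be read against 5.06% called higher and 11.2% called lower over all genes without a minimum. At a mean of at least 1 CPM, 8 were called higher and 23 lower of 59, where all genes gave 6.13% higher and 15.3% lower. The median log2 ratio over the 98 genes was -0.19, against 0.03 over all 26496 detected genes. Unless stated otherwise, the calls and medians of single lists below, for labelled knockout over control, are without a minimum level.

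The primary granule list had 2 of 5 genes called higher in the labelled knockout and 0 lower, with a median log2 ratio of 3.34 (2.49 when 1 count rather than 0.5 is added before the log2). None of its genes reached a mean of 1 CPM, so 0 were measured under that minimum. Prtn3, which encodes proteinase 3, had 20 counts in the labelled knockout and 2 in control islets, a ratio of 11.2 (2.73 to 99.2). Ctsg, which encodes cathepsin G, had 6 counts against 0. Fcnb, which encodes ficolin B, and Ms4a3, a membrane protein of early granulocytes, had 4 counts each in the labelled knockout and 0 in control islets, and Bpi had 0 against 2. None of the 5 genes of the list had a count in the precipitated libraries.

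The secondary and tertiary granule list had 7 of 11 genes called higher and 2 lower, with a median of 1.11. At a mean of at least 1 CPM, 4 of 8 were called higher and 2 lower, with a median of 0.56. Ltf, which encodes the iron-binding protein lactoferrin, had 177 counts in the labelled knockout, 59 in the RIP, 0 in the IgG library and 12 in control islets, and labelled knockout over control gave 16.6 (9.26 to 32.7). Olfm4, which encodes olfactomedin 4 and is also a gene of intestinal crypts, had 769 counts against 333, a ratio of 2.60 (2.28 to 2.96). Cd177, a surface protein also stored in granules, had 19 counts against 2, Mmp8, the neutrophil collagenase, 11 against 0, and Chil3, a chitinase-like protein, 29 against 7. Itgb2l and Ceacam10, which encode adhesion proteins, were 2.17-fold and 2.05-fold higher. In the other direction Pglyrp1, a peptidoglycan-binding protein, was 2.38-fold lower with 58 counts against 155, and Slpi, a protease inhibitor, was 1.90-fold lower with 97 against 207. Mmp9, which encodes gelatinase B, was not called, with 134 counts in the labelled knockout and 184 in control islets, and neither was Hp, which encodes haptoglobin, with 34 against 36.

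Mpo, Elane, Prtn3 and Ctsg made up 15.4% of their sum with Ngp, Camp, Ltf and Mmp8 in the labelled knockout (81 of 526, 12.4% to 18.8%), 21.6% in the RIP (21 of 97, 13.9% to 31.2%) and 15.8% in control islets (3 of 19, 3.38% to 39.6%). The RIP value rests on Mpo alone among the primary granule genes and the control value on 19 counts, so no comparison is drawn. The grouping into these 8 genes was made after their values were seen.

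Surface and receptor genes of neutrophils had 1 of 17 called higher in the labelled knockout and 4 lower, with a median of -0.08. Cxcr2, the main chemokine receptor of mature neutrophils, had 6 counts against 26 in control islets, 3.86-fold lower (1.55 to 11.4). Ptafr, the receptor for platelet-activating factor, had 86 counts against 195, and Ltb4r1, a leukotriene receptor, 12 against 36. Fpr1, a formyl peptide receptor, was the gene called higher, at 8 counts against 0. The most abundant genes not called were Il1r2, the decoy receptor for interleukin 1, at 338 counts against 362, and Itgam, which encodes CD11b, at 116 against 162. The B and T cell markers given above were lower in the same library, and their part in this list was not tested.

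Cytosolic and secreted neutrophil genes were mixed, with 4 of 15 detected genes called higher, 3 lower and a median of 0.27. Il1b, which encodes interleukin 1 beta, had 144 counts in the labelled knockout and 97 in control islets, a ratio of 1.67 (1.28 to 2.18). Hdc, which encodes histidine decarboxylase, had 141 against 98, Alox5, which encodes arachidonate 5-lipoxygenase, 22 against 10, and Wfdc21 8 against 1. Those called lower were Hk3, a myeloid hexokinase, at 55 against 132, Acod1 at 1 against 12 and Stfa3, a stefin, at 0 against 14. Stfa1, Stfa2 and Stfa2l1, stefins of the same family, were at 0 in both. Anxa1, which encodes annexin A1, at 380 against 426 and Pygl, a glycogen phosphorylase, at 227 against 243 were the most abundant genes not called.

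Each of the 5 NADPH oxidase genes was called lower in the labelled knockout, with a median of -1.64. This complex makes superoxide in neutrophils and is also expressed in macrophages and B cells. Cyba had 663 counts in the labelled knockout and 1957 in control islets. Cybb had 629 counts in the labelled knockout and 2312 in control islets, 3.27-fold lower (2.99 to 3.58), and Ncf1 had 312 against 1365, 3.89-fold lower (3.44 to 4.42). Of 7 transcription factor genes of granulocytes, 4 were called lower and 0 higher, with a median of -0.77. Spi1, which encodes PU.1, had 217 counts against 630, Runx1 100 against 381, Gfi1 29 against 91 and Cebpa 159 against 305. Cebpe, a factor of late granulocyte maturation, had 6 against 5, and Cebpd 247 against 297 and Cebpb 186 against 165 were not called either. Beside these lists, the summed B cell markers were 143.1 CPM against 739.8 and the 12 monocyte and macrophage markers 495.7 CPM against 779.4, and the part of these cells in the lists was not tested.

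**Figure D2:**
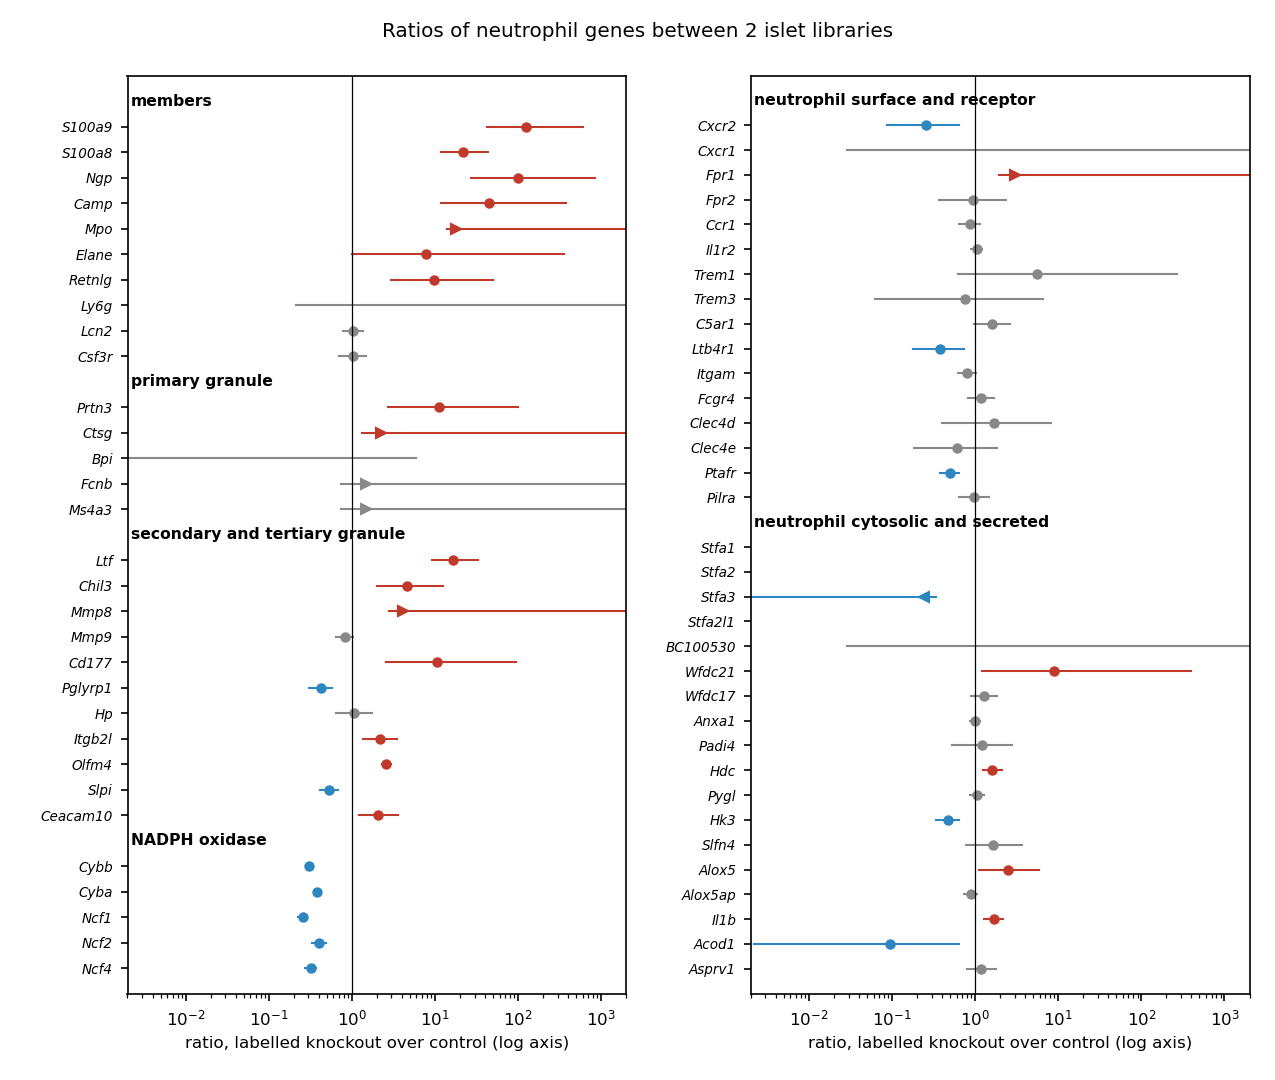
Ratio of labelled knockout over control on a log axis for the members and the reported genes of 5 lists of neutrophil genes, with exact 95% intervals that cover counting error only. Red marks genes called higher and blue genes called lower without a minimum level, grey the others; triangles are folds against 3 counts where a library had 0, lines that reach the edge of the panel have no finite end or extend past it, and genes with 0 counts in both libraries have no mark. The granule genes lie mostly right of 1, and the 5 oxidase genes lie left of it.

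Among signals that make or attract neutrophils, Cxcl1, a chemokine that acts on CXCR2, was called higher, with 137 counts in the labelled knockout and 34 in control islets, a ratio of 4.53 (3.09 to 6.80). Csf3, which encodes G-CSF, had 3 counts against 16, Tnf 31 against 86 and Ppbp, a platelet chemokine, 49 against 108, all 3 called lower. Cxcl2 had 19 against 20, Cxcl5 3 against 3, and Cxcl3 was at 0 in both. The list had 1 gene called higher and 3 lower of 7 detected, with a median of -0.96.

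Receptors of the members' proteins had 1 gene called higher and 1 lower of 5, with a median of 0.06. Lrp2, which encodes megalin, an endocytic receptor that takes up lipocalin, had 46 counts in the labelled knockout and 4 in control islets, 12.9-fold higher (4.72 to 49.4). Tlr4, through which S100A8 and S100A9 signal, had 62 counts against 176, 2.52-fold lower. Slc22a17, a lipocalin receptor, was the most abundant at 4657 against 4020 and Ager, a receptor of several S100 proteins, had 285 against 375, and neither was called.

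The other S100 genes did not follow S100a8 and S100a9. Of 14 in the labelled knockout, 0 were called higher and 1 lower, with a median of -0.22. The exception was S100g, an intestinal calcium-binding protein on another chromosome, with 2 counts in the labelled knockout and 335 in control islets. S100a11 had 1959 counts against 2161 and S100a10 1626 against 2447. Of the genes nearest to the pair on chromosome 3, S100a7a had 3 counts against 2, S100a6 had 988 against 1305, and Pglyrp4 and Gm5849 were at 0 in both. The nearest protein-coding genes to Ngp and Camp on chromosome 9 were Klhl18, with 405 counts against 578, and Nme6, with 256 against 315. Neither was near the ratios of the members called higher. Spink8, farther from Camp at 20746 bases, had 5 counts against 1. Relatives of Retnlg, Ly6g and Mpo had 7 of 12 called lower and 0 higher, with a median of -1.20 (-0.84 with 1 count added). Those called with the most counts in control islets were Ly6e at 8257 against 16684, Ly6a at 1407 against 2745 Ly6d at 402 against 1825 and Ly6c2 at 74 against 236, while Ly6c1 at 899 against 1155 was not called.

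Markers of other cells that can express S100 or granule genes summed to like or lower levels in the labelled knockout. The 12 monocyte and macrophage markers, all detected in both islet libraries, summed to 495.7 CPM in the labelled knockout and 779.4 in control islets, led by C1qa at 3486 counts against 3660 and Lyz2 at 2304 against 9254. The 8 red blood cell markers summed to 26.7 CPM against 30.4, with Epb42 at 0 in both, and the 5 platelet markers to 21.3 CPM against 23.3. The 10 markers of eosinophils, basophils and mast cells summed to 1.15 CPM against 2.35. The 10 squamous epithelium markers summed to 10.5 CPM against 9.72, with Krt5 and Sprr3 at 0 in both, and the 7 acute phase markers to 14.5 CPM against 25.7.

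**Figure D3:**
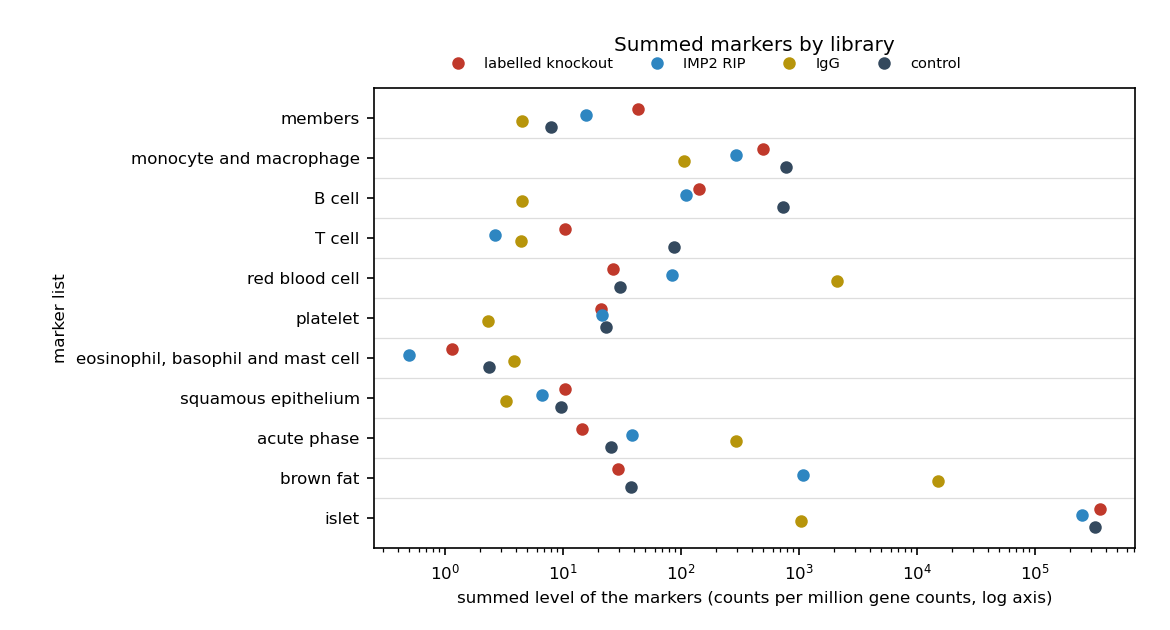
Summed levels of the 10 members and of marker lists of other cell types in the 4 libraries, in CPM on a log axis. The members are higher in the labelled knockout than in control islets, the B and T cell markers are lower there, and the IgG library is high in brown fat and red blood cell markers and low in islet markers.

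The RIP was compared with the IgG library, taken as its antibody control, and with control islets, at a fold limit of 2. The RIP and IgG libraries differed in tissue markers. For RIP over IgG, all 5 islet markers were called higher, with a median log2 ratio of 7.23. All 4 brown fat markers were called lower, with a median of -4.30. The part of tissue content in the ratios of the members over IgG was not tested, so these ratios do not measure binding to IMP2. Over IgG, 4 members were called higher in the RIP (S100a9, Ngp, Mpo and Lcn2) and 1 lower (S100a8), where 43.2% of 14822 genes were called higher and 30.5% lower. S100a9 had a ratio of 25.8 (4.10 to 1072) and Lcn2 23.8 (6.11 to 204). Ngp, with 17 counts against 0, was at least 7.70-fold and Mpo, with 21 against 0, at least 9.51-fold higher than the 3-count floor of the IgG library, and the exact intervals of these ratios began at 5.61 and 7.07. S100a8, with 0 counts against 55, was at least 13.5-fold lower when the RIP is set to 3 counts, and its ratio had an exact upper end of 0.0942. The share called in this pair of libraries is large for any gene, and it moves with the scaling: 58.6% of all calls were higher under TMM and 69.4% under library totals. Over the 10 lists, 21 genes were called higher and 22 lower of 52 measured.

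Over control islets, S100a9 (33.6, 9.90 to 177), Ngp (45.1, 10.7 to 403) and Mpo (at least 37.2-fold against the 3-count floor, exact lower end 27.6) were called higher in the RIP and Csf3r was called 4.08-fold lower (1.34 to 20.3), where 16.8% of 15968 genes were called higher and 24.3% lower. The ratio of Lcn2 was 1.52 (1.01 to 2.23), under the fold limit. This comparison shares its control library with that of the labelled knockout, so the low control counts of S100a9, Ngp and Mpo enter both. The RIP counts of these 3 genes, 19, 17 and 21, are close to the median of 18 counts (quartiles 11 and 27) over the 230 genes that had more than 5 counts in the RIP and 0 in both islet libraries. The number of original molecules behind such a count was not measured, and the intervals do not cover it. Brown fat markers stood at 1088 CPM in the RIP, against 38.2 CPM in control islets, and their part in these values was not tested. Over the 10 lists, 16 genes of 59 measured were called higher for RIP over control and 23 lower.

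Zero counts were common in the precipitated libraries among genes at the levels that the members had in the labelled knockout. Of 9489 genes that stood between the levels of Elane and S100a9 in the labelled knockout (0.288 to 13.8 CPM), 58.8% were seen with a count in the RIP, while 48.7% were seen in the IgG library. For 9113 genes in this range in control islets, the shares were 55.9% and 46.3%. Camp, Retnlg, Elane and Ly6g were at 0 in both precipitated libraries, and S100a8 at 0 in the RIP. The precipitated libraries came from islets labelled WT. In control islets Camp stood at 0.0759 CPM, Retnlg at 0.114, Elane at 0.038 and Ly6g at 0, all under this range, so these shares do not apply to their zeros. S100a8, at 0.417 CPM in control islets, was within the range, so its 0 in the RIP is to be read beside the 55.9%. Among the lists, Ltf at 59 counts and Olfm4 at 75 counts were also found in the RIP and at 0 in the IgG library, whereas Cd177 at 35 counts and Mmp9 at 31 counts were found in the IgG library and at 0 in the RIP. Chil3 had 4 counts in the RIP against 22 in the IgG library.

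Likeness to S100a9 was measured over the 4 libraries as the root mean square difference between log2 CPM profiles with 0.5 counts added, each centred on its own mean, among 14886 protein-coding genes that reached 1 CPM in some library. Ngp was closest at 0.53 and Mpo second at 1.20 on the log2 scale. Lrrn4 at 1.32, Ltf at 1.51, Lrp2 at 1.52, Klhl31 at 1.58, Pdzrn4 at 1.65, Vxn at 1.71, Hrk at 1.74 and Cuzd1 at 1.75 completed the 10. Of these 10 only Ngp, Mpo, Ltf and Lrp2 were members or list genes. Camp had rank 13, Cxcl1 rank 20, Retnlg rank 30 and Ceacam10 rank 63, while Lcn2 had rank 886, Csf3r rank 4807 and S100a8, the calprotectin partner, rank 12949, the farthest of the 7 other members ranked. Among granule genes of the lists, Cd177 had rank 13012 and Mmp9 rank 14203. The 4 values of a profile are single libraries of low counts, so the order of neighbouring ranks is not firm.

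**Figure D4:**
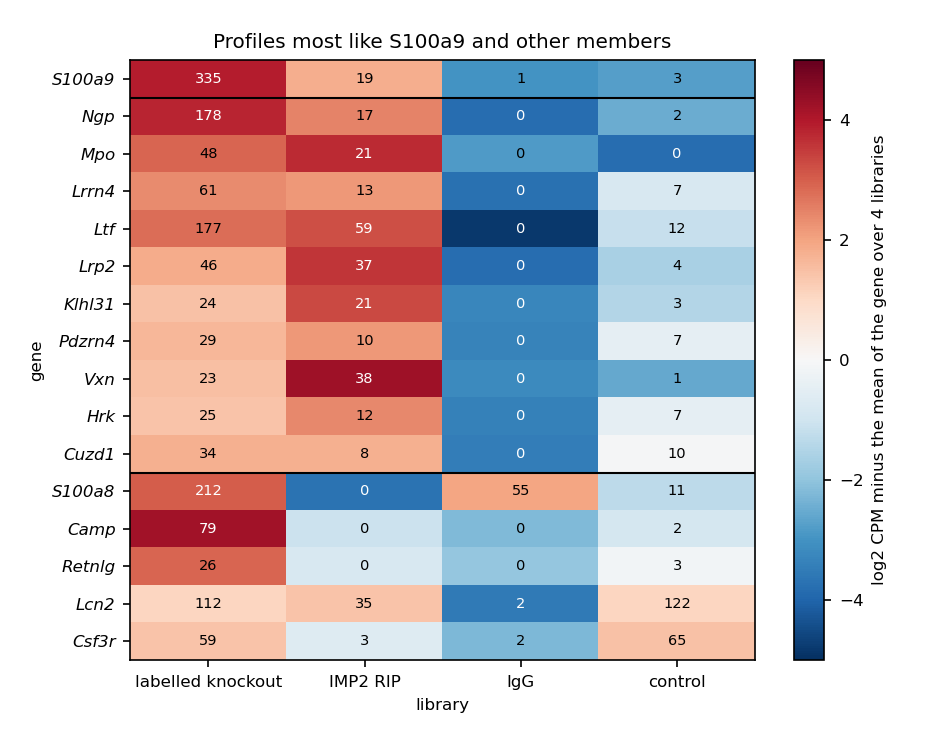
Read counts (numbers) and log2 CPM minus the gene's mean over the 4 libraries (colours) for S100a9, the 10 genes with the closest profiles in order of closeness, and 5 other members. Ngp and Mpo share the high labelled knockout and RIP values and the low IgG and control values of S100a9, S100a8 departs in the RIP and the IgG library, and Lcn2 and Csf3r are as high in control islets as in the labelled knockout.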

How the data were processed

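Per the submitters' processing notes, reads were aligned with STAR and counted with HTSeq on mm10; the versions, annotation release and strand option are not given in the sources used here. Sense and antisense reads may therefore be counted together. The deposited files hold whole-number read counts per Ensembl gene, with 5 closing entries that name no gene; these held 50.3% of the deposited total in the labelled knockout, 72.4% in the RIP, 70.5% in the IgG library and 50.8% in control islets, and were left out. Reads that align more than once have their own closing entry, so genes with close copies can be undercounted. GENCODE M21 named 42462 of 43629 genes; promoters came from RefSeq (GRCm38.p6).

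CPM values were computed here over gene counts. Pairs were scaled by TMM (edgeR 4.0.16, R 4.3.3). Ratios carry exact 95% Clopper-Pearson intervals and levels exact Poisson intervals; both, and the floor of 3 counts, cover counting error only. With 1 library per group there is no test, and no p-value is given. Medians of log2 ratios used an offset of 0.5 counts. Scripts ran in Python 3.11.15 (pandas 2.3.3, Matplotlib 3.10.9, NumPy 2.4.6, SciPy 1.17.1). The call rule was run on simulated counts that held counting error only. Such counts cannot show how it behaves under variation between libraries, so they lend the calls no support. The members and lists were chosen with earlier results of these data known. Named genes are the members, Igf2bp2, the 10 closest profiles, neighbours on the chromosome and, per list, called genes (the 4 most abundant where more were called) and the 2 most abundant others; further genes were added after their values were seen. Values of 2 list genes are not reported here, though the list counts and sums include them.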

Additional observations from a re-analysis of the deposited data

How the results depend on the processing

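Scaling by library totals, by median of ratios, or by totals without Ins1, Ins2, Gcg and Gm42418 changed no call of a member in any of the 3 comparisons. The minimum level mattered most. For labelled knockout over control, 4 members and 8 list genes called higher became 7 and 16 without a minimum, and 1 (S100a9) and 1 at 5 CPM. At 5 CPM the members called in the RIP comparisons were 0 in either direction, list genes called higher were 9 over IgG and 9 over control, and list genes called lower were 11 over control. Over all genes at 5 CPM, 497 were called higher and 1582 lower for labelled knockout over control, 3945 higher for RIP over IgG, and 1302 higher and 2220 lower for RIP over control; fewer genes are tested there. A fold limit of 1.5 added Lcn2 to the members called higher for RIP over control. A fold limit of 2 for labelled knockout over control left 198 genes higher and 1375 lower. For RIP over IgG, totals without the 4 genes named above left 14 list genes and 2421 genes in all called lower, against 22 and 4518, and the share of calls that were higher was 79.1%, against 58.6% under TMM and 69.4% under library totals, because that scaling shifts every log2 ratio by 1.42. The pooled list median for labelled knockout over control ranged from -0.37 to -0.19. Among candidates of at least 5 CPM, 4 of the 10 closest profiles were shared with those named (Ngp, Ltf, Lrp2 and Vxn). The other named genes did not reach 5 CPM in any library, so this setting could not have kept them. No paired analysis was possible because each group has 1 library, and leaving out a replicate was not possible for the same reason.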

Other observations

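Several genes of the lists were most abundant in the IgG library, beside its brown fat markers. Of those named here, Hp and Pygl are from the neutrophil lists, and the S100 genes and Retn are family relatives of members. Hp, which encodes haptoglobin, had 409 counts in the RIP against 24474 in the IgG library, Pygl 292 and 13623, S100a13 473 and 14575, S100a1 492 and 7638, and S100b 128 and 2746. Retn, which encodes the adipocyte hormone resistin and is a relative of Retnlg, had 0 counts in the labelled knockout, 55 in the RIP, 2253 in the IgG library and 1 in control islets. Ucp1, the brown fat uncoupling protein, had 1123 counts in the RIP, 54374 in the IgG library and 5 in control islets, and the red blood cell markers summed to 84.5 CPM, 2091 CPM and 30.4 CPM in the same order. The part of fat or blood cells in the 55 S100a8 counts of the IgG library was not tested.

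Lpo, which encodes lactoperoxidase, a relative of myeloperoxidase, had 0 counts in the labelled knockout and 17 in control islets, where Mpo had 48 and 0.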
